A study of Mus musculus with 84 samples.

Results

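The metabotropic glutamate receptor genes Grm2, Grm3, Grm4, Grm5, Grm7 and Grm8 were followed in the nuclear RNA of cortical neurons after DOI. The members were chosen by name, as 6 of the 55401 gene IDs that were counted, and all 6 were among the 17941 genes that passed the filter on low counts. Sorted NeuN+ nuclei came from the frontal cortex of 12-week-old 129S6/SvEvTac mice, and NeuN is a protein of neuronal nuclei. One group of 4 mice had received vehicle. The others, of 4 mice each, had received DOI (2,5-dimethoxy-4-iodoamphetamine), a psychedelic drug that activates the serotonin 2A receptor, 24 h, 48 h or 7 days before sampling. All groups shared the strain, the age and the sort, and the labels name no transgene. Each mouse gave 2 libraries, which were summed.

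Metabotropic glutamate receptors are G protein-coupled receptors that tune synapses over longer times than the glutamate-gated ion channels. Group I receptors, such as that of Grm5, couple to Gq and raise intracellular calcium, mostly on the postsynaptic side. Group II (Grm2 and Grm3) and group III (Grm4, Grm6, Grm7 and Grm8) receptors couple to Gi/o, lower cyclic AMP and often restrain glutamate release from the presynaptic terminal. In the frontal cortex the product of Grm2 is known for its links to the serotonin 2A receptor.

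The promoters of the 2 members that were called are shown first, with that of Grm3, the nearest relative of Grm2, for comparison. Promoter sequences of 4 of the 6 members (Grm2, Grm3, Grm7 and Grm8) were taken from RefSeq, on GRCm38.p6. Each line gives the 250 bases before the first RefSeq start, 5′ to 3′ on the strand of the gene, with matches to the GC box GGGCGG or its reverse complement in capitals. The Grm2 stretch is chr9:106656110-106656359 on the minus strand, the Grm7 stretch chr6:110645262-110645511 on the plus strand and the Grm3 stretch chr5:9725353-9725602 on the minus strand.
Grm2: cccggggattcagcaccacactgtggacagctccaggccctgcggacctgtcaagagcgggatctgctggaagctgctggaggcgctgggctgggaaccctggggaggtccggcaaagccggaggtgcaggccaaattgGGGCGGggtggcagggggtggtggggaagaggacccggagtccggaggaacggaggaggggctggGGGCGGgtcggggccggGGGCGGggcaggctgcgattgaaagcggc
Grm7: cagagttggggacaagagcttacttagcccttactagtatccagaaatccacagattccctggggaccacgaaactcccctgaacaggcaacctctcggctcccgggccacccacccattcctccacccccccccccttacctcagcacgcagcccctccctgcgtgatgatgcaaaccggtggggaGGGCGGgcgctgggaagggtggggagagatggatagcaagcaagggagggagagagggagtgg
Grm3: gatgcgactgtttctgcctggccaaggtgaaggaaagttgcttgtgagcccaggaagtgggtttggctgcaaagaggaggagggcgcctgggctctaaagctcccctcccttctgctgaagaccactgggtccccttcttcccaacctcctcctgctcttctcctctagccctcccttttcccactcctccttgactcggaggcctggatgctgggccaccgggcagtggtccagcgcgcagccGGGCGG

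The Grm2 stretch held 3 GC boxes and the Grm7 and Grm3 stretches 1 each. Of 32851 RefSeq promoter stretches of the same length, 32.7% held at least 1 GC box and 8.47% held 3 or more. Base composition was 71.2% G or C for Grm2, 62% for Grm7 and 62.4% for Grm3, and the upper quartile of all stretches was 61.2%, so all 3 were rich in G and C. The first Grm8 entry also held 1 GC box, at 68.4% G or C. The other motifs searched on both strands were the cyclic AMP response element TGACGTCA, the AP-1 site TGACTCA, the E-box CACGTG, the TATA box TATAAA, the EGR site GCGNGGGCG and the CCAAT box. The first 5 of these matched no stretch of the 4 members and are held by 1.55%, 4.46%, 6.02%, 12.4% and 4.7% of all stretches. A CCAAT box, held by 33.8% of all stretches, matched 1 time in Grm2, where it touched a GC box, and 2 times in the first Grm8 entry and 1 time in the second. These matches describe the letters of these windows only.

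Counts summed to between 9151680 and 11517452 per vehicle mouse. The range was 6441396 to 8090559 in the 24 h group, 5834248 to 7344355 in the 48 h group and 6972577 to 12354785 in the 7 days group. The 5 neuron markers summed to 5472 to 5909 CPM (counts relative to the library total, scaled by TMM factors) in vehicle mice, and to 4134 to 5796, 3712 to 5680 and 4242 to 5848 CPM in the DOI groups in order of time. Among them, Rbfox3, the gene of NeuN, was higher at 24 h and 48 h (56.4 CPM in vehicle, then 98.8 and 99.4 CPM; edgeR adjusted p 0.0103 and 0.00775), while Snap25 averaged 4101 CPM in vehicle and 2738 CPM at 24 h. Of 7 GABA neuron markers, 1 was higher and 2 were lower at 24 h, and 1 was higher and 1 lower at 48 h. The part of these shifts in the results on the receptor genes was not tested. In any mouse 7 astrocyte markers summed to between 554 and 1165 CPM and 4 endothelial markers to at most 8.22 CPM. The 6 microglia markers averaged 94.8 CPM in vehicle, 65.0 at 24 h and 61.4 at 48 h with none called, and the 6 oligodendrocyte markers 270.2, 197 and 215 CPM with 1 called lower at each time; their part in the results was not tested. Gfap, which defines many astrocytes, was at 0 in 1 vehicle mouse and in 1, 2 and 3 mice of the DOI groups in order of time. The share of counts on Rn18s-rs5, an 18S ribosomal RNA pseudogene, lay between 0.00694% and 0.0101% in vehicle mice. In the DOI groups it lay between 0.328% and 1.57% (24 h), between 0.523% and 1.66% (48 h) and between 0.00607% and 0.633% (7 days). The 8 striatal neuron markers summed to 348 to 385 CPM in vehicle and 249 to 319 CPM at 24 h (2 of 7 tested called lower, 0 higher). The sums were 309 to 656 CPM at 48 h (1 of 7 called higher, 0 lower) and 418 to 1807 CPM at 7 days (0 called). Because RNA was measured in bulk, fewer cells of a type and less RNA per cell cannot be told apart.

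In vehicle mice the receptor genes covered a wide span of levels once CPM were divided by exon length. Grm7 was highest at 56.7 CPM per kb ± 2.59 (SD, n = 4), followed by Grm3 at 44.9 ± 12.4 and Grm5 at 37.8 ± 5.80. The ranges of Grm7 (53.4 to 59.0 CPM per kb) and Grm3 (36.0 to 62.9) overlapped, and so did those of Grm3 and Grm5 (30.8 to 44.3), so these neighbours were not separated beyond their spread. Grm2 stood below them at 21.3 CPM per kb ± 3.80 and Grm8 at 7.57 ± 2.27, each without overlap with the next. Grm4 was lowest of the 6 at 1.71 CPM per kb ± 0.556. By their means the group III genes thus held both the highest and the lowest of the 6 levels, though the highest was not separated from Grm3. At 24 h the order was Grm5 (31.1 CPM per kb ± 4.59), Grm3 (31.0 ± 8.62), Grm7 (23.6 ± 4.69), Grm2 (8.27 ± 3.07), Grm8 (6.22 ± 1.88) and Grm4 (0.693 ± 0.347). In that group the range of Grm7 (16.7 to 27.1) overlapped those of Grm5 (26.7 to 36.9) and Grm3 (21.0 to 42.0), and that of Grm2 (4.33 to 10.8) overlapped that of Grm8 (4.23 to 8.07).

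**Figure D1:**
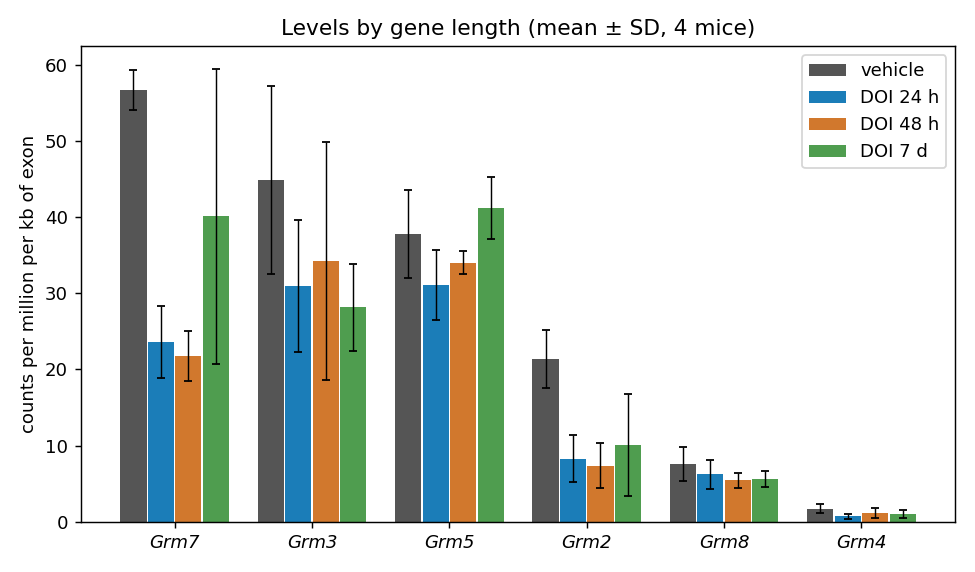
Mean CPM per kb of exon (vertical axis, from 0) for the 6 members in the 4 groups, with bars at the mean and error bars of 1 SD over 4 mice. Grm7 fell from 56.7 in vehicle to 23.6 at 24 h, and Grm2 from 21.3 to 8.27.

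At 24 h after DOI, 2 of the 6 receptor genes were lower than in vehicle namely Grm2 and Grm7 (edgeR quasi-likelihood test, Benjamini-Hochberg adjusted p below 0.05 over all genes). Over all genes tested, 24.2% were called, 10.4% as lower and 13.8% as higher. The same 2 genes were lower at 48 h, where 30.1% of all genes were called, 13.3% lower and 16.8% higher. At 7 days none of the 6 passed, and neither did any other gene (0% called); 2 members, Grm2 and Grm3, had an unadjusted p below 0.05, as did 3012 genes in all. At 7 days DESeq2 called 796 genes and no member, limma voom 0 genes, edgeR without the filter on low counts 958 genes, and limma with duplicateCorrelation on the 32 libraries 308 genes; in the last 2 fits Grm2 was the 1 member called. The fitted log2 fold change was negative for 6 of 6 members at 24 h and at 48 h and for 5 of 6 at 7 days. In the order 24 h, 48 h and 7 days, their median was -0.90, -0.56 and -0.59, against medians over all genes of 0.03, 0.02 and 0.02. The 3 contrasts share the vehicle mice, so they are not independent of each other.

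**Figure D2:**
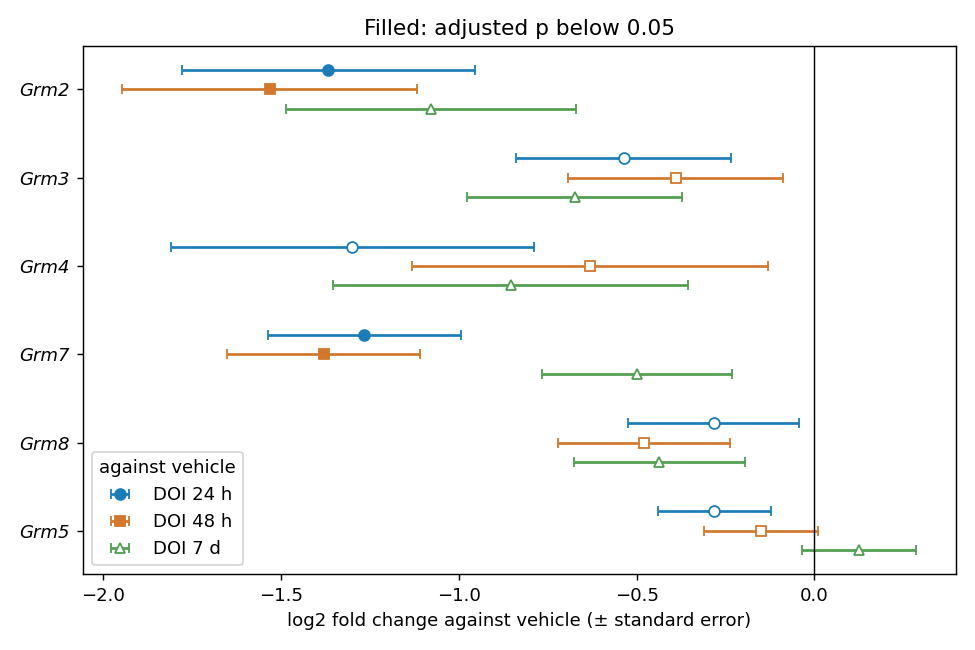
Log2 fold change against vehicle (horizontal axis, bars of 1 standard error, 4 mice a group) for the 6 members at 24 h, 48 h and 7 days. Filled symbols, which mark an adjusted p below 0.05, are those of Grm2 and Grm7 at 24 h and 48 h, all on the lower side.

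Among the group II receptors, Grm2 (ENSMUSG00000023192, chromosome 9, 106643095 to 106656082, GRCm38, minus strand) was at 132, 95.7, 90.9 and 99.3 CPM in vehicle mice 1 to 4. It was at 21.2, 51.8, 53.0 and 36.0 CPM in the mice at 24 h and at 39.1, 24.3, 25.8 and 55.2 CPM in those at 48 h. Every DOI mouse at these times lay below the lowest vehicle mouse. Grm2 was 2.58-fold lower at 24 h, with a log2 fold change of -1.37 (SE 0.41, edgeR adjusted p 0.0235). The 48 h mice were 2.89-fold below vehicle, with a log2 fold change of -1.53 (SE 0.41, edgeR adjusted p 0.0117). Of all genes tested, 3.28% had a lower log2 fold change at 24 h and 2.90% at 48 h. Of the exon bases of Grm2, 9.6% overlap exons of a gene on the other strand, and reads there could not be assigned by strand.

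The 7 days mice did not form a single level of Grm2. Mice 1 and 3 were at 80.0 and 75.1 CPM and mice 2 and 4 at 25.0 and 17.2 CPM, all below the lowest vehicle mouse at 90.9 CPM. Against vehicle this gave a log2 fold change of -1.08 (SE 0.41), which did not pass (edgeR adjusted p 0.195).

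Grm3 (ENSMUSG00000003974, chromosome 5, 9485541 to 9725170, minus strand), a receptor of both neurons and astrocytes, was at 192, 110, 131 and 115 CPM in vehicle mice. At 24 h it was at 64.0, 128, 93.7 and 91.7 CPM and at 48 h at 107, 43.7, 160 and 107 CPM, so both groups overlapped vehicle. At 7 days the mice were at 94.9, 99.5, 60.4 and 88.3 CPM, below all 4 vehicle mice. None of the 3 contrasts passed, with log2 fold changes of -0.54, -0.39 and -0.67 in order of time (SE 0.30 each) and edgeR adjusted p of 0.200, 0.337 and 0.267. Summed astrocyte markers were 756 to 827 CPM in vehicle, 813 to 1165 CPM at 24 h, 656 to 1133 CPM at 48 h and 554 to 781 CPM at 7 days. Of their vehicle mean of 786 CPM, Slc1a2 alone gave 501 CPM. The part of these markers in the level of Grm3 was not tested.

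Grm7 (ENSMUSG00000056755, chromosome 6, 110645581 to 111567230, plus strand) encodes a group III receptor of presynaptic active zones with a low affinity for glutamate. It was at 329, 314, 344 and 347 CPM in vehicle mice, the smallest spread relative to its mean among the members in vehicle. At 24 h it was at 150, 159, 148 and 98.1 CPM and at 48 h at 151, 104, 128 and 130 CPM. No DOI mouse at these times reached the vehicle range. Grm7 was 2.40-fold lower at 24 h (log2 fold change -1.26, SE 0.27, edgeR adjusted p 0.00472). In the 48 h mice the difference was 2.60-fold, or -1.38 on the log2 scale (SE 0.27, edgeR adjusted p 0.00251). Of all genes tested, 4.25% and 4.00% had a lower log2 fold change at these times.

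At 7 days Grm7 parted the mice as Grm2 did. Mouse 3 was above every vehicle mouse at 356 CPM and mouse 1 just below them at 307 CPM, while mice 2 and 4 were at 115 and 167 CPM, near the levels of 48 h. As a group they differed from vehicle by -0.50 on the log2 scale (SE 0.27, edgeR adjusted p 0.357) and from the 48 h mice by 0.88 (SE 0.27, adjusted p 0.161).

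Grm4 (ENSMUSG00000063239, chromosome 17, 27422387 to 27521403, minus strand), also of group III, had the fewest reads of the 6. Its counts were 160, 83, 89 and 79 in vehicle mice and 7, 36, 37 and 46 at 24 h. In CPM these were 15.1, 9.44, 8.74 and 7.69 in vehicle and 1.07, 5.36, 4.69 and 5.44 at 24 h, with no overlap. The log2 fold change of -1.30 (SE 0.51) at 24 h did not pass (edgeR adjusted p 0.0684), and over the alternatives that keep every mouse or leave out the mice of other header numbers the adjusted p lay between 0.0263 and 0.979. At 48 h the mice were at 3.33, 3.52, 11.7 and 7.84 CPM and at 7 days at 9.74, 3.14, 6.42 and 3.22 CPM, overlapping vehicle at both times. These gave log2 fold changes of -0.63 (SE 0.50, edgeR adjusted p 0.347) and -0.85 (SE 0.50, adjusted p 0.406).

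Grm8 (ENSMUSG00000024211, chromosome 6, 27275119 to 28135178, minus strand), the other group III receptor, was at 107, 55.9, 69.6 and 66.7 CPM in vehicle mice. It was at 41.9, 74.7, 49.7 and 79.9 CPM at 24 h, 50.3, 47.0, 68.6 and 48.9 CPM at 48 h and 60.3, 48.2, 45.0 and 68.1 CPM at 7 days. All 3 DOI groups overlapped vehicle. The log2 fold changes were -0.28 (SE 0.24, edgeR adjusted p 0.402), -0.48 (SE 0.24, adjusted p 0.136) and -0.44 (SE 0.24, adjusted p 0.373) in the same order.

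Grm5 (ENSMUSG00000049583, chromosome 7, 87584168 to 88134907, plus strand) is the group I member, a postsynaptic receptor that binds Homer proteins. It was at 368, 315, 410 and 454 CPM in vehicle mice and at 378, 333, 273 and 290 CPM at 24 h. At 48 h the mice lay between 334 and 369 CPM and at 7 days between 395 and 484 CPM, and each DOI group overlapped vehicle. Its log2 fold changes were -0.28, -0.15 and 0.12 in order of time (SE 0.16 each), with edgeR adjusted p of 0.204, 0.496 and 0.720. These were the smallest standard errors of the 6 genes.

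**Figure D3:**
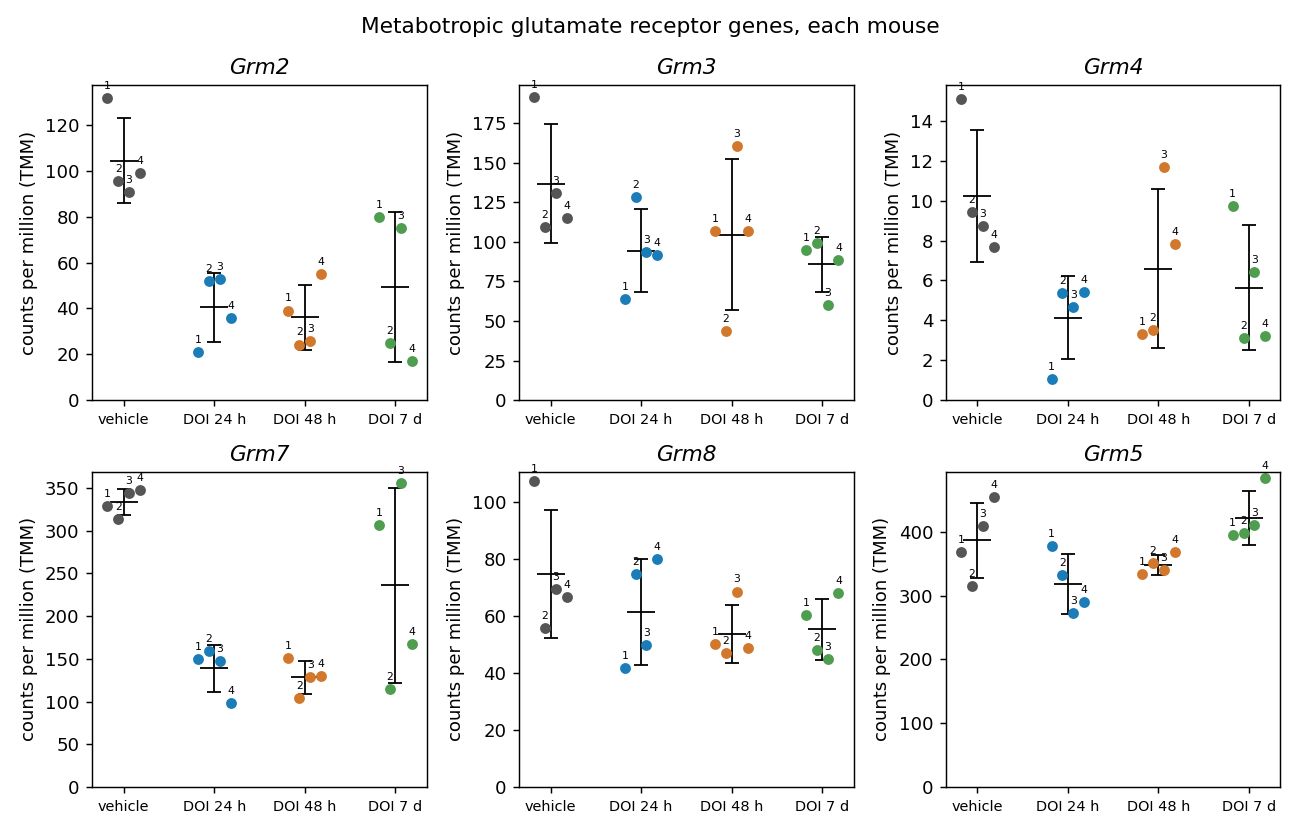
CPM of the 6 members (vertical axes, from 0) in each mouse, with mouse numbers beside the points and the mean and 1 SD over 4 mice as lines. Grm2 and Grm7 lie below every vehicle mouse at 24 h and 48 h, and at 7 days mice 2 and 4 lie apart from mice 1 and 3.

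Counted over the 6 members, the DOI and vehicle mice did not overlap for 3 genes at 24 h (Grm2, Grm4 and Grm7), 2 at 48 h (Grm2 and Grm7) and 2 at 7 days (Grm2 and Grm3). The shares of all genes tested without overlap were 35.7%, 38.1% and 5.85% in the same order. Between 48 h and 24 h none of the 6 members and 0% of all genes were called by edgeR. None of the 6 had an unadjusted p below 0.05 there, against 338 genes in all. Between 7 days and 48 h the calls were again 0 of 6 and 0%, with 1 member, Grm7, among 2959 genes at an unadjusted p below 0.05, while DESeq2 called 432 genes and 0 members there. For any difference among the 4 groups, edgeR called Grm7 (adjusted p 0.00558) and Grm2 (adjusted p 0.0288), and 18.8% of all genes.

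With the log2 share of Rn18s-rs5 as a covariate, edgeR called no gene at all at 24 h or 48 h, against 4346 and 5395 genes without it, so the lost calls of Grm2 and Grm7 are not particular to them. In that fit the log2 fold change of Grm2 was 0.21 at 24 h and 0.11 at 48 h, and that of Grm7 was -0.07 and -0.10, with no call (edgeR adjusted p 0.985 at 24 h and 0.999 at 48 h). The share did not overlap between vehicle and the mice at 24 h or 48 h, so there share and group cannot be told apart. At 7 days, mice 2 and 4 had shares of 0.633% and 0.474% and the low levels of both genes, while mice 1 and 3 had shares of 0.00834% and 0.00607%. With the share of mitochondrial counts as a covariate the log2 fold changes were -0.82 and -0.57 for Grm2 and -0.96 and -0.87 for Grm7. These were again not past the threshold, and 264 and 0 of all genes were called. The mitochondrial share lay between 0.0171% and 0.0701% in vehicle, 0.0621% and 0.101% at 24 h, and 0.108% and 0.268% at 48 h. At 48 h it did not overlap vehicle, so there this share and the group cannot be told apart either. The mice 2 and 4 at 7 days also had the highest striatal marker sums, 1807 and 1361 CPM, against 665 and 418 CPM in mice 1 and 3; the part of these in the result was not tested.

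**Figure D4:**
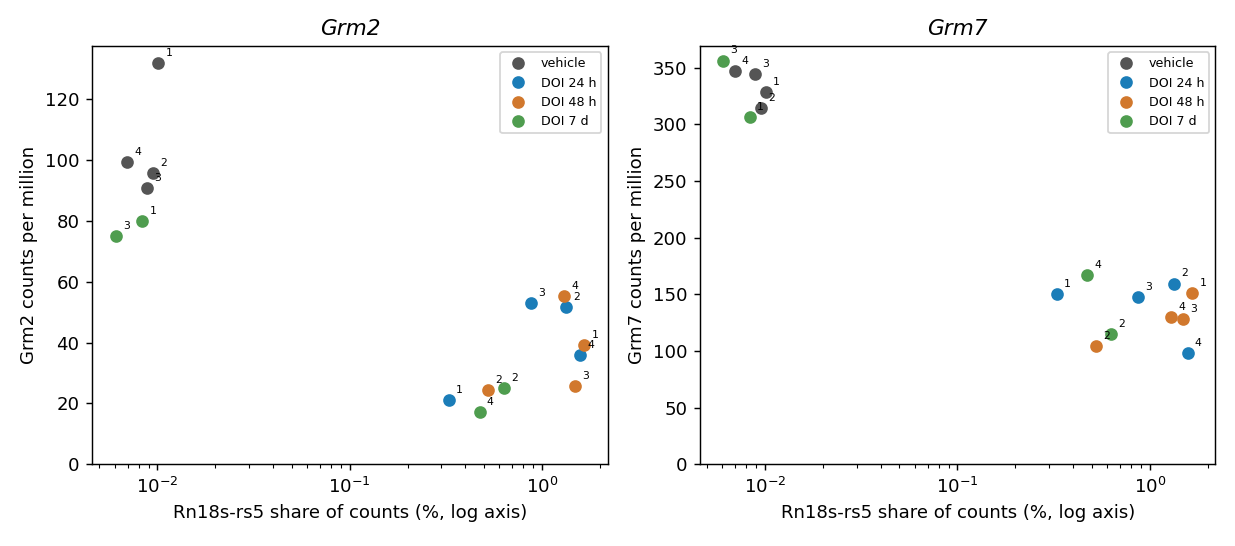
CPM of Grm2 and Grm7 (vertical axes, from 0) against the Rn18s-rs5 share of counts in percent (log axis) for each of the 16 mice, with mouse numbers beside the points. The vehicle mice and 7 days mice 1 and 3 lie at shares of at most 0.0101%, and the other mice at 0.328% or more with the lower levels.

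The call of Grm2 at 24 h was lost without vehicle mouse 1 (edgeR adjusted p 0.0670), without 24 h mouse 1 (0.0700) or without 24 h mouse 4 (0.0655). At 48 h Grm2 passed without any single mouse of either group (adjusted p at most 0.0412), and so did Grm7 at 24 h (at most 0.0208) and at 48 h (at most 0.0103). Without 7 days mouse 1, Grm2 passed at 7 days with a log2 fold change of -1.42 (adjusted p 0.0475). The mice at 24 h numbered 1, at 48 h numbered 2 and at 7 days numbered 2 carry another mouse number in the file headers. Without these 3, Grm2 at 24 h did not pass (log2 fold change -1.15, adjusted p 0.0527).

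Ratios of 2 members within a mouse do not depend on scaling between mice and were compared for 3 pairs at 3 times by exact two-sided permutation tests of 4 against 4 mice, for which the smallest possible p is 0.0286. The 9 p-values were adjusted together. The log2 ratio of Grm2 to Grm3, the group II pair, averaged -0.37 ± 0.19 (SD, n = 4) in vehicle and was lower by 0.90 at 24 h and 1.10 at 48 h, with 4 of 4 DOI mice below the vehicle range at each time (exact permutation, adjusted p 0.0429 for both). At 7 days it ranged from -2.36 to 0.31, on both sides of the vehicle range, with a difference of -0.70 (exact permutation, adjusted p 0.418). With the Rn18s-rs5 share as a covariate the 2 genes stood the other way round, with log2 fold changes of 0.21 and 0.11 for Grm2 and -1.21 and -1.11 for Grm3 at 24 h and 48 h, none of them called by edgeR.

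The log2 ratio of Grm7 to Grm8, a group III pair, averaged 2.20 ± 0.40 in vehicle. It differed by -0.997 at 24 h, with 3 of 4 mice below the vehicle range (exact permutation, adjusted p 0.0735), by -0.94 at 48 h, with 4 of 4 (adjusted p 0.0429), and by -0.23 at 7 days (adjusted p 0.714). The log2 ratio of Grm5 to Grm2 averaged 1.89 ± 0.35 in vehicle and was higher by 1.16, 1.46 and 1.50 at 24 h, 48 h and 7 days, with 4 of 4 mice above the vehicle range each time (exact permutation, adjusted p 0.0429 for each). At 7 days this ratio was 2.30 and 2.45 in mice 1 and 3 and 3.99 and 4.81 in mice 2 and 4, so even the nearest mouse lay above the highest vehicle value of 2.19. Without any one vehicle mouse none passed (exact permutation, adjusted p at least 0.103), with differences of -0.96 to -0.84 for Grm2 to Grm3 and 1.03 to 1.26 for Grm5 to Grm2 at 24 h and unadjusted p of 0.0571 for both. At 48 h none passed without any one 48 h mouse (exact permutation, adjusted p at least 0.0514). There the unadjusted p of Grm2 to Grm3 and of Grm5 to Grm2 stayed at 0.0286, and the adjusted values moved with Grm7 to Grm8, whose unadjusted p became 0.0571. Without any one 24 h mouse the ratios of Grm2 to Grm3 and of Grm5 to Grm2 at 24 h still passed. So did Grm5 to Grm2 at 7 days without any one 7 days mouse (exact permutation, adjusted p 0.0429 each time). With the Rn18s-rs5 share as a covariate these 2 pairs also stood the other way round at 24 h and 48 h. The log2 fold changes were -0.30 and -0.17 for Grm5, 0.21 and 0.11 for Grm2, -0.07 and -0.10 for Grm7, and -0.68 and -0.89 for Grm8. At 7 days Grm5 was at 0.12 and Grm2 at -0.69 in that fit, and edgeR called none of these.

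**Figure D5:**
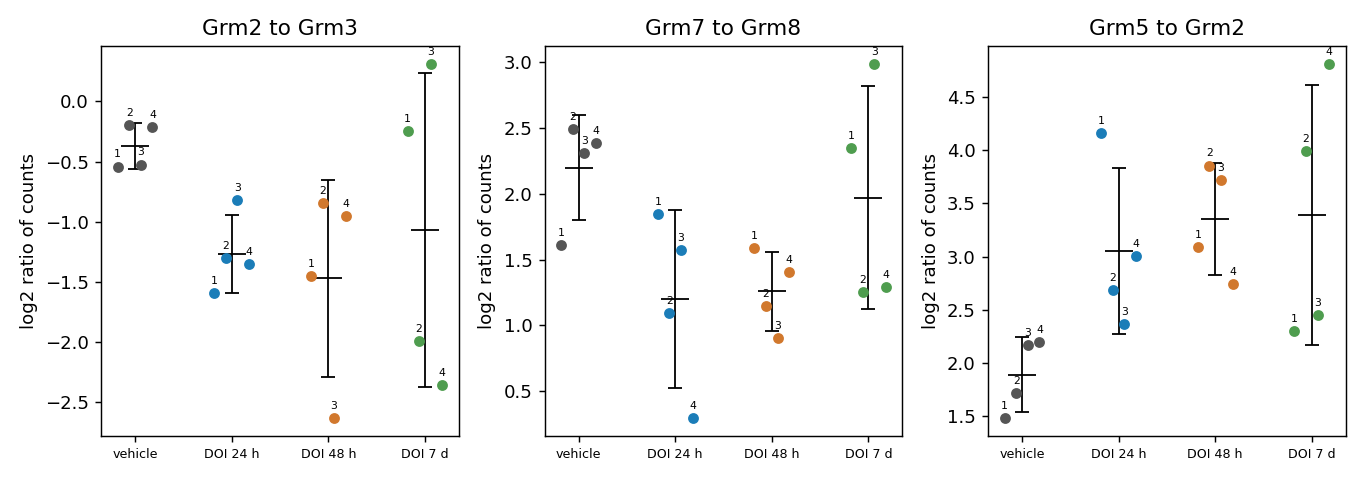
Log2 ratio of the counts of 2 receptor genes in each mouse (vertical axes), with mouse numbers beside the points and the mean and 1 SD over 4 mice as lines, for Grm2 to Grm3, Grm7 to Grm8 and Grm5 to Grm2. The Grm5 to Grm2 ratio lies above the vehicle range in all 4 mice of each DOI group.

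Grm6, a receptor of retinal bipolar cells, had 1 count in 24 h mouse 2, 1 in 48 h mouse 3 and 0 in the other mice, where 3 counts correspond to 0.254 to 0.502 CPM. It was not tested. Htr2a, the serotonin 2A receptor gene, was lower at 24 h (log2 fold change -1.10, SE 0.24, edgeR adjusted p 0.00536) and at 48 h (-0.79, SE 0.24, adjusted p 0.0200).

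Of 70 genes in 4 lists of partners that act with these receptors, 68 were tested (Itpr3 and Homer3 had too few counts), and at 24 h 9 were higher and 10 lower (27.9% called, against 24.2% of all genes). At 48 h 11 were higher and 12 lower (33.8%, against 30.1%), and at 7 days none passed. The median log2 fold change of the 68 genes was 0.02 at both 24 h and 48 h, against 0.03 and 0.02 for all genes. With the Rn18s-rs5 share as a covariate 0 of the 68 were called at either time, as were 0 of all genes.

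Among 20 genes of Gi/o coupling and cyclic AMP, the route of group II and III receptors, 5 were higher and 1 lower at 24 h. At 48 h 6 were higher and 2 lower. These were 30% and 40% of the list, against 24.2% and 30.1% of all genes. Gnao1, the Go alpha subunit, was at 44.4 CPM ± 4.96 in vehicle and 109 ± 7.67 at 24 h (log2 fold change 1.29, SE 0.24, edgeR adjusted p 0.00308). Kcnj6, a potassium channel opened by G protein subunits, rose from 7.06 ± 1.43 to 25.8 ± 2.48 CPM (edgeR adjusted p 0.00329). Gnai2, a Gi alpha subunit, rose from 15.7 ± 3.16 to 26.2 ± 5.05 CPM, only just past the threshold (edgeR adjusted p 0.0474). Adcy2, an adenylyl cyclase, fell from 396 ± 54.5 to 229 ± 21.3 CPM. The 4 genes were called in the same direction at 48 h. The other calls, named after their values were seen, were Gng3 and Adcy1, higher at both times, and Adcy9 (higher) and Gnai3 (lower) at 48 h.

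Of 14 tested genes of the Gq route of group I receptors, 1 was higher and 1 lower at each of 24 h and 48 h. The share called was 14.3% at both times, against 24.2% and 30.1% of all genes. Dgkz, a kinase that removes diacylglycerol, rose from 36.0 ± 3.02 to 89.3 ± 25.0 CPM at 24 h and 93.8 ± 29.6 at 48 h. Prkcb, a protein kinase C, fell from 645 ± 40.6 to 427 ± 73.1 and 453 ± 46.6 CPM.

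Among 16 tested scaffolds and binding partners, 1 was higher and 3 lower at 24 h, and 1 higher and 4 lower at 48 h. Calls thus covered 25% and 31.3% of them, near the 24.2% and 30.1% of all genes. The postsynaptic scaffolds Shank2 and Shank1 went opposite ways: Shank2 rose from 41.1 ± 4.69 to 100 ± 10.2 CPM at 24 h, while Shank1 fell from 306 ± 19.5 to 123 ± 52.1 CPM. Pick1, a scaffold that binds the tail of the Grm7 receptor, fell from 65.9 ± 7.22 CPM in vehicle to 31.8 ± 7.54 at 24 h and 25.9 ± 4.08 at 48 h. At 24 h it only just passed (edgeR adjusted p 0.0486, and 0.0145 at 48 h). Ncdn, a neuronal protein that binds group I receptors, fell from 606 ± 105 to 200 ± 101 and 176 ± 110 CPM (edgeR adjusted p 0.0451 and 0.0250). The remaining call at 48 h was Cyth2, which was lower.

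Of 18 genes of receptor desensitisation, which include kinases, phosphatases and regulators of G protein signalling, 2 were higher and 5 lower at 24 h. At 48 h 3 were higher and 5 lower. These calls made up 38.9% and 44.4% of the list, against 24.2% and 30.1% of all genes, and the difference was not tested. Camk2a, a calcium-dependent kinase, was at 180 CPM ± 31.5 in vehicle and 1405 ± 652 at 24 h (log2 fold change 2.96, SE 0.56, edgeR adjusted p 0.00308). It also stands among the 5 glutamatergic neuron markers, of which 2, Camk2a and Tbr1, were called higher at 24 h and none lower. Slc17a7, the vesicular glutamate transporter of these cells, averaged 142 CPM in vehicle and 81.5 CPM at 24 h, without overlap but not past the threshold (edgeR adjusted p 0.0616). The part of these markers in the results above was not tested. Grk2, a receptor kinase, rose from 10.2 ± 2.26 to 41.0 ± 5.86 CPM. Ppp2ca, a phosphatase subunit, fell from 434 ± 23.3 to 147 ± 37.3 CPM (edgeR adjusted p 0.00176). Rgs4 and Rgs14 shorten G protein signals. Rgs4 fell from 1192 ± 122 to 418 ± 89.9 CPM (edgeR adjusted p 0.00273) and Rgs14 from 62.9 ± 11.3 to 27.6 ± 7.60 CPM (adjusted p 0.0447). Calm2 and Rgs7 were also lower at both times, and Arrb1 was higher at 48 h.

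Inside the spans of the members lie 13 other annotated features, of which 7 were tested. At 24 h 1 was higher and 1 lower, at 48 h 2 were higher, and at 7 days none passed, against 24.2%, 30.1% and 0% of all genes, so 2 calls among 7 features are near the background. The first was Gm20386 (chromosome 6, 110738350 to 110738481), a single-exon feature on the strand of Grm7 that shares no exon bases with it. It averaged 0.828 CPM in vehicle, 4.18 at 24 h and 4.05 at 48 h (log2 fold change 2.30, SE 0.74, edgeR adjusted p 0.0314, and 2.25, SE 0.74, adjusted p 0.0296), while the exons of Grm7 fell. With at most 15 counts in a vehicle mouse, the size of this change is imprecise. Gm44848 (chromosome 7, 88063061 to 88066294), inside Grm5, was lower at 24 h (log2 fold change -0.92, SE 0.29, adjusted p 0.0293) and Gm42455 (chromosome 5, 9599872 to 9602607), inside Grm3, was higher at 48 h (1.51, SE 0.54, adjusted p 0.0433). Reads of unspliced receptor RNA in these intervals would be counted to the features, and their part was not tested.

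The genes whose log2 CPM tracked each member most closely over the 16 mice were ranked by Pearson correlation among 10988 protein-coding genes, as a description, since all genes share the libraries and their depth. For Grm2 they were Ncdn (r = 0.980), Atp6v1b2 (0.976) and Snrpn (0.975), and for Grm7 Zfp397 (0.981), Poglut1 (0.972) and Tmem87b (0.969). Taken as deviations from the group means, the correlations of Grm2 with Ncdn and of Grm7 with Zfp397 were 0.988 and 0.955. Such deviations keep the split between the 7 days mice, where Grm2 ran from 17.2 to 80.0 CPM and Ncdn from 79.1 to 731 CPM. The part of that split in these values was not tested. For Grm3 the closest genes were Slc36a4 (0.937), Lhfp (0.896) and Atf6 (0.868), and for Grm4 Mmgt1 (0.921), Myh10 (0.879) and Serac1 (0.875). Grm8 with Tspan6 (0.83), Pde1a (0.80) and Lypd1 (0.78), and Grm5 with Amy1 (0.858), Kdm3a (0.835) and Gpr34 (0.822), had the lowest values of the 6 members.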

How the data were processed

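RNA was measured in 32 libraries of 16 mice, with 4 mice per group. The authors deposited raw counts for each gene, made with featureCounts 2.0.0 over exons of Ensembl GRCm38 genes, per the file headers, which name no option for strand, so reads were left at the tool's defaults. The submitters' processing notes list Trim Galore 0.6.5; the aligner of these files is not given in the sources used here. The first number of a title was read as the mouse and the second as the library, and the 2 libraries of a mouse (total counts of 2763704 to 7436451 each) were summed. Where nothing says that mice were raised apart, p-values measure only the spread between these samples. Chromatin samples were not analysed here.

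Counts of the mice were filtered with filterByExpr, scaled by TMM factors and fitted once over the 4 groups with edgeR 4.0.16 (R 4.3.3), and p-values were adjusted over 17941 genes. Standard errors were derived from the fold change and its F statistic. DESeq2 1.42.0 and limma 3.58.1 served as alternatives, with other factors, filters, thresholds, libraries, covariates and left-out mice. The fit was tested on simulated data. The members and lists were chosen with earlier results of these data known. Named were the 6 members, Grm6, Htr2a, the 3 protein-coding genes most correlated with each member (mean log2 CPM of at least 2), and, per list, up to 3 genes in each direction called at both 24 h and 48 h; the features inside Grm genes were named after their values were seen. Some results that the naming rule covers are not reported here.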

Additional observations from a re-analysis of the deposited data

Results flagged for a closer look

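In 48 h mouse 3, Grm8 was at 68.6 CPM, far from the other 3 mice of its group, of which the nearest was at 50.3 CPM. It was the 1 far value among 36 groups of 4 mice examined (6 genes and 3 ratios in 4 groups), where chance gives about 1.8.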

How the results depend on the processing

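In fits that left out no single mouse, 284 fold changes of members kept direction and side of the threshold, 9 were weaker, 10 stronger and 3 reversed; leaving out each mouse, 140 did, 3 were weaker and 1 stronger. The reversed values, with the Rn18s-rs5 share as covariate, were Grm2 at 24 h (0.21) and 48 h (0.11) and Grm4 at 48 h (0.23). That covariate gave 0 members at 24 h, 0 at 48 h and 0 in the 4-group test, and 0 signalling genes at 24 h and 48 h, where 0, 0 and 5 of all genes were called (without a covariate 4346, 5395 and 3380). The mitochondrial share gave 0, 0 and 0 members, 4 and 0 signalling genes, and 264, 0 and 1 of all genes. The cause was not tested for these or the changes below.

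Voom with quality weights called 4 members, 32 signalling genes and 7236 of all genes at 24 h. At 7 days, where 0 genes were called, DESeq2 called 4 signalling genes (796 of all genes), no filter 1 member and 5 signalling genes (958), and duplicateCorrelation 1 member and 6 signalling genes (308). No filter and duplicateCorrelation each called 1 member for 7 days against 48 h, with 665 and 1205 of all genes. DESeq2 called 4 features inside members at 24 h (5413 of all genes). Without the 3 mice of other header numbers 1 member was called at 24 h and 1 in the 4-group test (3514 and 2910 of all genes). At a threshold of 0.01 the members were 1 at 24 h, 1 at 48 h and 1 in the 4-group test, and the signalling genes 9 and 12 (1404, 2088 and 837 of all genes); at 0.1 there were 2 signalling genes at 7 days (236).

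Same-numbered mice are different animals, and their deviations were correlated at -0.04 on average over 24 pairs (-0.28 to 0.24). With the mouse number as a block 1 member was called in the 4-group test, and 2 at 24 h, 2 at 48 h and 0 at 7 days (2409, 3667, 4664 and 0 of all genes). Library 1 alone took the ratios of Grm2 to Grm3 (-0.92 and -1.15 at 24 h and 48 h), Grm7 to Grm8 at 48 h (-0.87) and Grm5 to Grm2 (1.22, 1.53 and 1.51) to adjusted p of 0.0514, or 0.0857 for Grm7 to Grm8. Except for the latter, the differences were as large as from both libraries and the unadjusted p stayed at its smallest, 0.0286, so this says nothing on their stability: the adjustment moved with Grm7 to Grm8.

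With a mouse left out, the members called against vehicle numbered 1 to 2 (24 h), 2 (48 h) and 0 to 1 (7 days), where 2550 to 3933, 3514 to 4899 and 0 to 1342 of all genes were called. They numbered 0 to 1 between 7 days and 48 h (0 to 438 of all genes), and 1 to 2 in the 4-group test (1475 to 4481). In the same fits signalling genes were 12 (without 24 h mouse 2) to 18, 18 to 22 and 0 to 9, and features inside members 0 to 2, 0 to 2 and 0 to 1. Ratios differed by -1.05 to -0.79, -1.31 to -0.71 and -1.16 to -0.27 for Grm2 to Grm3, by -1.21 to -0.70, -1.13 to -0.82 and -0.57 to 0.012 (the latter without 7 days mouse 2) for Grm7 to Grm8, and by 0.79 to 1.39, 1.29 to 1.67 and 1.02 to 1.86 for Grm5 to Grm2. Scaling by total counts put the median over all genes at 0.14 (24 h) and 0.12 (48 h) on the log2 scale, and moved the share of calls that were higher at 24 h from 57.0% to 67.3%. The smallest p of 4 against 4 mice limits the ratios, and the low counts of Grm4 its precision.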

Other observations

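Across the 16 mice, log2 CPM of Grm2 and Grm7 had a Pearson correlation of 0.808, Grm2 and Grm4 of 0.728, Grm3 and Grm8 of 0.721, and Grm3 and Grm4 of 0.647. The group II pair Grm2 and Grm3 was at 0.445. Of the group III pairs, Grm4 and Grm8 were at 0.606, Grm4 and Grm7 at 0.519 and Grm7 and Grm8 at 0.254. Grm5 was at -0.01 with Grm2, -0.06 with Grm3, -0.05 with Grm4 and 0.01 with Grm8, and at 0.420 with Grm7. These are descriptions over mice that share libraries, depth and group differences.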
